A study of Mus musculus with 72 samples.

Results

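A set of 10 genes that encode transcription factors of B cells was examined for the chromatin occupancy of 5 such factors in resting B cells (rB) with and without HMGN proteins. The genes were Pax5, Ebf1, Ikzf1, Ikzf3, Ets1, Irf8, Irf4, Pou2f2, Spib and Bach2, 10 of the 22367 protein-coding genes of GENCODE vM1, and they were taken as a named list, not by a measured value. For each gene, ChIP-seq peaks were counted within 50 kb of the gene body in the mm9 mouse genome, and a peak counted for a gene in this sense is called a peak near it. HMGN1 and HMGN2 are nucleosome-binding proteins without DNA sequence specificity, and the study compared C57BL/6 cells of genotype Hmgn1+/+n2+/+ (WT) with cells of genotype Hmgn1-/-n2-/- (DKO). Chromatin of splenic resting B cells of both genotypes was immunoprecipitated with antibodies to IKAROS, ETS1, IRF8, PAX5 and OCT2. Peak lists of 6 antibodies in mouse embryonic fibroblasts (MEFs) and 5 in embryonic stem cells (ESCs) served as contrast. Each antibody had 2 biological replicates per genotype, and neither the labels nor the methods say whether the 2 came from separate mice or cultures. P values therefore measure the spread between these libraries, which may be technical. The comparison of WT with DKO cells asks whether the factors occupied fewer places near these genes when both HMGN proteins were missing.

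B cell identity rests on a small network of transcription factors that occupy regulatory DNA of each other's genes and often of their own. EBF1 and PAX5 specify and commit cells to the B lineage, IKAROS (encoded by Ikzf1) and AIOLOS (Ikzf3) are zinc finger proteins that activate and repress lymphoid genes, and ETS1, SPI-B, IRF8, IRF4, OCT2 (encoded by Pou2f2) and BACH2 act in mature B cells or at their differentiation. A number of these proteins bind as partners, so that an ETS family protein and IRF4 or IRF8 share a composite DNA element.

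The sequences at the 9 places near the genes that IRF8, PAX5 or OCT2 occupied in both WT libraries are shown because these antibodies gave the fewest peaks, so their summits mark the places with the least choice. Each is the plus strand of mm9, 101 bases centred on the WT summit of the antibody named. Capitals mark short motifs found on either strand. The motifs searched were GGAANNGAA (ETS-IRF composite), GGAAGT (ETS), TGGGAA (IKAROS), ATGCAAAT (octamer), CCCNNGGG (EBF), CAGCTG (E-box) and TGTGGT (RUNX). The ETS-IRF motif can overlap the ETS and the IKAROS motif.
Pax5 intron, chr4:44684029-44684129, IRF8 summit: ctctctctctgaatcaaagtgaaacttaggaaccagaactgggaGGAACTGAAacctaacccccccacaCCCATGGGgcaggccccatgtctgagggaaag
Ebf1 intron, chr11:44578680-44578780, IRF8 summit: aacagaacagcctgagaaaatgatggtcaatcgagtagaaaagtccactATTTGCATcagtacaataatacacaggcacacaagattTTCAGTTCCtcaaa
Ets1 intron, chr9:32459975-32460075, IRF8 summit: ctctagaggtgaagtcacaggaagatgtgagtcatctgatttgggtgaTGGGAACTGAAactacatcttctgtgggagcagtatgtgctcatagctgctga
Bach2 intron, chr4:32445714-32445814, IRF8 summit: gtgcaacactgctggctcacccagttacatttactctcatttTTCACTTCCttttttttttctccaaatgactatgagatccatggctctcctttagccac
Pou2f2 intron, chr7:25914684-25914784, IRF8 summit: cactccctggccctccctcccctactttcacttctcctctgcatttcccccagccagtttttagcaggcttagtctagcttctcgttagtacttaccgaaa
Napsa promoter near Spib, chr7:51827623-51827723, IRF8 summit: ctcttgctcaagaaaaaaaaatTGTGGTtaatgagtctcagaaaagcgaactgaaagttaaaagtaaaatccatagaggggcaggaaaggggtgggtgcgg
Nr1h2 promoter near Spib, chr7:51809456-51809556, PAX5 summit: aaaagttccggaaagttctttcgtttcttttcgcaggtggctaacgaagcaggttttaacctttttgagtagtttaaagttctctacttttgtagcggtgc
upstream of Irf8, chr8:123249334-123249434, PAX5 summit: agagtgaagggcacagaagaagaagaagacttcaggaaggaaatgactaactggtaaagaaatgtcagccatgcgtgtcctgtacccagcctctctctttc
2310044H10Rik promoter near Spib, chr7:51751520-51751620, OCT2 summit: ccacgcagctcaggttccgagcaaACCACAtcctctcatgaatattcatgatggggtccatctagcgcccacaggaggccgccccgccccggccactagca
The Pax5, Ebf1, Ets1 and Bach2 introns held the ETS-IRF motif within 50 bases of the IRF8 summit. In the Ets1 intron it overlapped the IKAROS motif, in the Bach2 intron it contained the ETS motif, and the Ebf1 intron also held the octamer. In windows of 100 bp on each side of the summit, 4 of the 6 IRF8 sites near the genes held the ETS-IRF motif (66.7%), beside 49.0% of the 675 IRF8 sites found in both WT libraries of the whole genome. Both PAX5 sequences held none of these letters, and the OCT2 sequence held the RUNX motif but not the octamer. A match describes the letters only.

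The lists gave no read totals. The number of stacked reads behind a peak could be solved from its fold enrichment and p in the 10 WT lists of rB, with a lowest background of 1.23 to 1.87 reads, but in only 3 of the 10 DKO lists, where it was 1.19 to 2.5. The depth of the other 7 DKO lists is therefore unknown, and its part in the differences between genotypes was not tested. In rB, Hmgn2 had 1 IKAROS peak within 1 kb in both WT lists and 0 in both DKO lists, and Hmgn1 had 1 in each of the 4, which does not test its deletion. Peak numbers fell in DKO rB for each antibody, with log2 changes of -1.02 for IKAROS, -1.97 for ETS1, -1.44 for IRF8, -3.04 for PAX5 and -2.35 for OCT2. The adjusted p values, from limma fitted over 16 antibodies, were 0.00673, 0.00158, 0.00673, 0.0019 and 0.0125. An exact permutation test of 2 libraries against 2 cannot give a p below 0.33. The IKAROS call was lost without DKO replicate 2 and the IRF8 and OCT2 calls without either WT replicate, when the log2 change was -0.99 for IKAROS, -1.42 and -1.45 for IRF8 and -2.28 and -2.42 for OCT2. All 8 B cell marker genes had an IKAROS peak within 50 kb in both WT libraries, beside 4 of 8 T cell and 4 of 8 myeloid markers. A peak missing from a list means that no enrichment passed the caller's threshold, not that the protein was absent.

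IKAROS peaks lay near all 10 genes in both WT libraries and were fewer in DKO rB near most of them. The 10 genes together had 141 and 147 IKAROS peaks in the WT libraries and 78 and 74 in the DKO libraries, a mean of 144 ± 4.24 against 76.0 ± 2.83 (SD, n = 2). The DKO mean was 52.8% of WT near these genes and 49.2% over all IKAROS peaks. Both WT libraries had more peaks than both DKO libraries near 9 of the 10 genes, beside 51.6% of the 9708 genes with any IKAROS peak. A peak in any 1 library sufficed for those, while the 10 genes had a median of 14.25 WT peaks. The shares were not compared at like peak numbers. The order of the genotypes depended on the number of peaks taken. When each library was reduced to its 4838 strongest peaks, the size of the shortest list, the 10 genes had a mean of 64 peaks in WT and 74.0 in DKO, 116% of WT. The windows covered 0.0864% of the genome and held 1.43% of the WT IKAROS peaks.

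**Figure D1:**
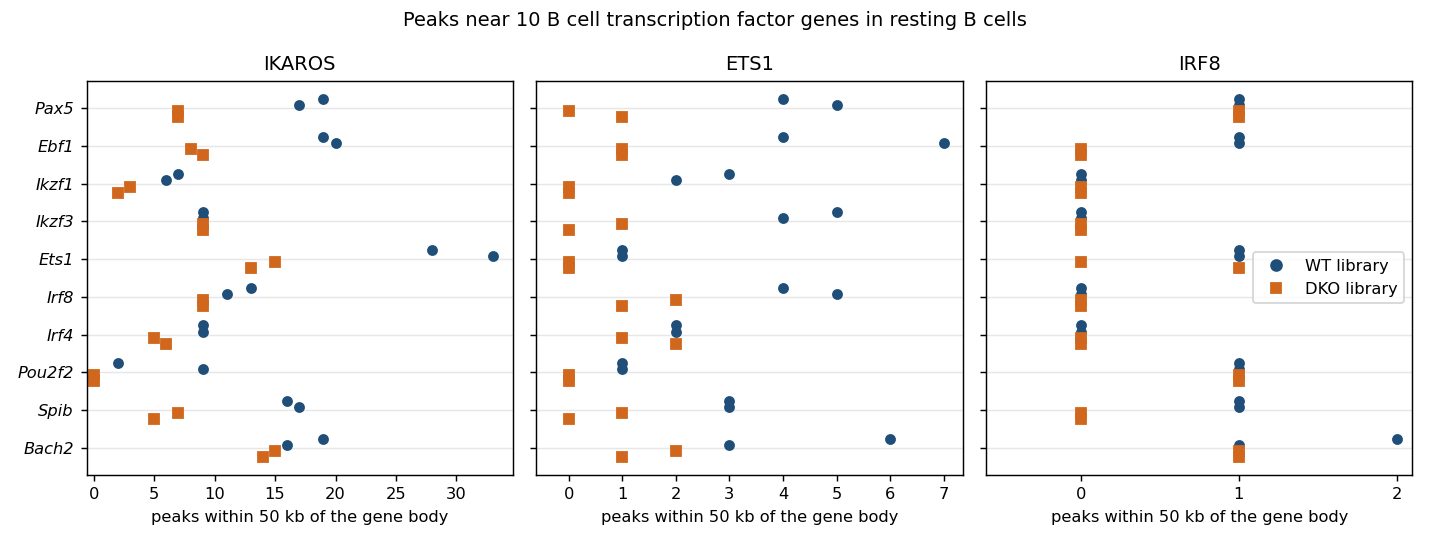
Peaks within 50 kb of each gene body in the 4 rB libraries of the IKAROS, ETS1 and IRF8 antibodies, with WT libraries as circles and DKO libraries as squares. For IKAROS the WT circles lie right of the DKO squares for 9 genes, and the 4 points coincide at 9 peaks for Ikzf3.

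Pax5 and Ebf1, the genes of the factors that establish B lineage identity, had fewer IKAROS peaks in DKO. Pax5 (chr4:44544017-44724318, minus strand) had 19 and 17 peaks in WT and 7 in each DKO library. Ebf1 (chr11:44430819-44821593, plus strand) had 19 and 20 peaks in WT and 8 and 9 in DKO. The groups did not overlap for either gene. In limma, fitted over 3605 genes on log2(peaks + 0.5), the log2 change in peaks was -1.30 (SE 0.0712, adjusted p = 0.00741) near Pax5 and -1.15 (SE 0.08, adjusted p = 0.0122) near Ebf1. The Pax5 call was lost without either DKO replicate and the Ebf1 call without either WT replicate, with adjusted p values of 0.0852 and 0.0878 for Pax5 and 0.143 and 0.167 for Ebf1 in limma. With equal numbers of top peaks, the log2 change was 0.12 near Pax5 and -0.41 near Ebf1, and neither was called.

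Of the Ikaros family genes, Ikzf1 (chr11:11585006-11672929, plus strand) had 7 and 6 IKAROS peaks in WT and 3 and 2 in DKO, a log2 change of -1.24 that was not called (adjusted p = 0.0662, limma). Ikzf3 (chr11:98326216-98407345, minus strand) had 9 peaks in each of the 4 libraries, and its log2 change was 0.93 with equal numbers of top peaks (adjusted p = 0.0986, limma). It was the only one of the 10 genes whose genotypes overlapped in IKAROS peak number.

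Ets1 carried the most IKAROS peaks of the 10 genes. Ets1 (chr9:32443806-32565405, plus strand) had 28 and 33 peaks in WT and 15 and 13 in DKO. In the whole annotation, 5 genes (0.0224%) had as many WT peaks within 50 kb or more. Spib (chr7:51781365-51787441, minus strand), which encodes an ETS family protein of B cells, had 16 and 17 peaks in WT and 7 and 5 in DKO. The log2 change was -1.09 near Ets1 (SE 0.139, adjusted p = 0.0350) and -1.40 near Spib (SE 0.206, adjusted p = 0.0432) in limma. The Ets1 call was lost without any 1 of the 4 libraries, with adjusted p values of 0.131 to 0.238, and the Spib call without either WT replicate, with 0.298 and 0.354. With equal numbers of top peaks, the changes were -0.05 near Ets1 and -0.12 near Spib. The starts of 6 other protein-coding genes lay in the Spib window.

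The interferon regulatory factor genes showed smaller differences than Pax5, Ebf1, Ets1 and Spib, which was not tested, and larger ones than Ikzf3 and Bach2. Irf8 (chr8:123260258-123280594, plus strand) had 13 and 11 IKAROS peaks in WT and 9 in each DKO library. Irf4 (chr13:30841095-30858796, plus strand), which directs plasma cell formation, had 9 in both WT lists and 5 and 6 in DKO. Their log2 changes of -0.39 and -0.67 were not called (adjusted p = 0.101 and 0.0513, limma), and both were positive with equal numbers of top peaks, 0.67 and 0.59.

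Pou2f2 (chr7:25877472-25917507, minus strand) had 2 and 9 IKAROS peaks in WT and 0 in each DKO library. Its WT libraries differed more than those of any other gene here, and the change was not called (adjusted p = 0.0995, limma). Bach2 (chr4:32325779-32673083, plus strand), whose product represses plasma cell genes, had 19 and 16 peaks in WT and 15 and 14 in DKO, a log2 change of -0.26 (adjusted p = 0.207, limma) that was 0.27 with equal numbers of top peaks.

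IKAROS peaks were therefore called fewer near 4 of the 10 genes and more near none. Over all 3605 genes tested, 28.6% were called fewer, and the median change was -0.73, beside -1.12 for the 10 genes. In plain peak numbers the order was opposite, with DKO at 52.8% of WT near the 10 genes and 49.4% near all protein-coding genes. The medians were not compared at like peak numbers, so no larger loss near the 10 genes is read from them. The moderated test gave genes with equal numbers in both libraries of each genotype, 17.9% of those tested, a very small spread. A gene that was not called may still have changed. Leaving out a library of the other genotype likewise gave calls for Irf8, Irf4 and Pou2f2, whose remaining pair was tied. The number called fewer depended on the setting. It was 0 of 8 tested with equal numbers of top peaks, 2 at 10 kb, 3 with any 1 library left out, 6 with 1 spread common to all genes and 7 at 100 kb. The share of all genes called in either direction in these settings was 10.9%, 26.4%, 24.2% to 45.2%, 48.5% and 33.1%.

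Per 100 kb of window, Spib had the densest IKAROS peaks in WT, 15.6, followed by Ets1 with 13.8, Irf8 with 9.97, Irf4 with 7.65 and Pax5 with 6.42. Ikzf3 (4.97), Ebf1 (3.97), Pou2f2 (3.93), Bach2 (3.91) and Ikzf1 (3.46) formed the lower end. The Pou2f2 libraries, with 2 and 9 peaks, span the other 4 of these genes and reach Pax5, and Bach2 overlaps both Ebf1 and Ikzf1, so no order is read from them beyond Ikzf3 above Ebf1, Bach2 and Ikzf1. In DKO Irf8 had 7.48, followed by Ets1 with 6.32 and Spib with 5.66, whose libraries overlap, and Pou2f2 had 0.

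**Figure D2:**
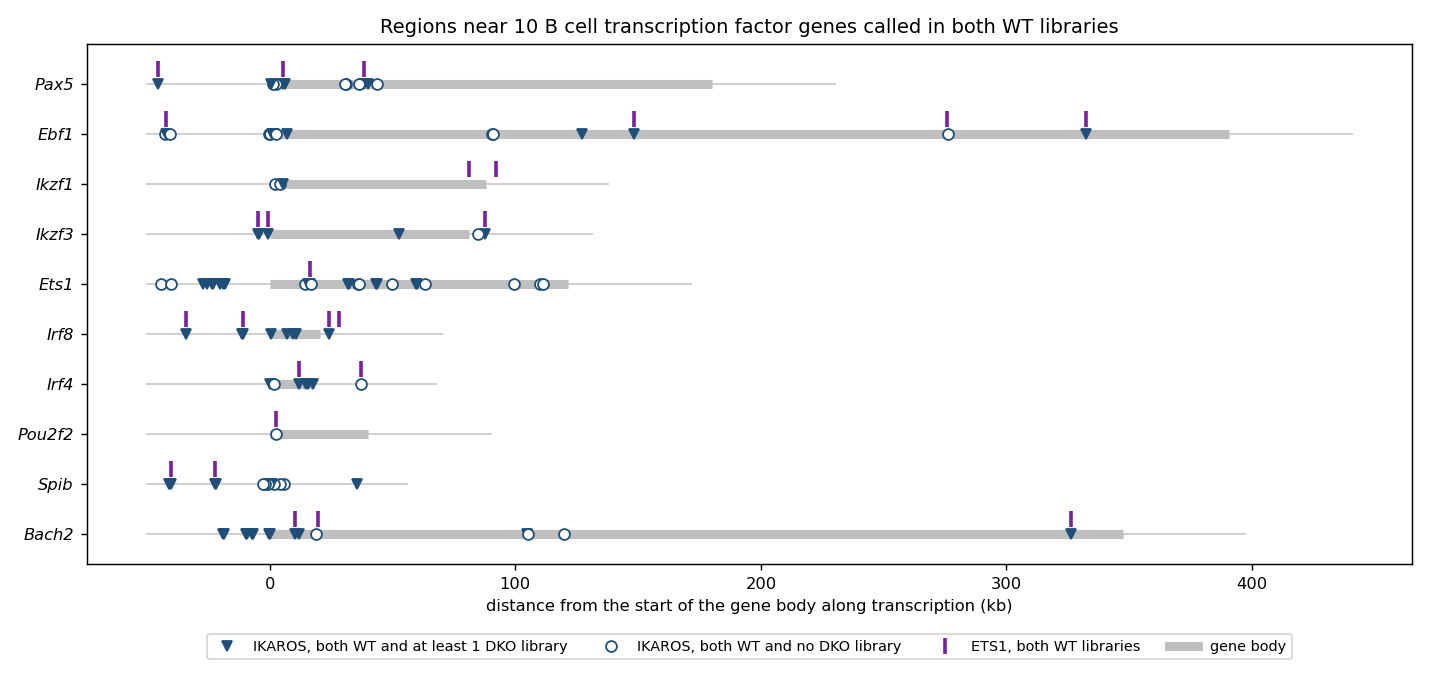
Places near the 10 genes occupied in both WT libraries, at their distance in kb from the start of the gene body along the direction of transcription (grey bar, gene body; thin line, 50 kb on each side). Filled triangles are IKAROS with a peak in at least 1 DKO library, open circles IKAROS without one, and ticks ETS1. Open circles make up 2 of the 20 IKAROS regions with ETS1 and 38 of the 87 without, beside 29.6% and 45.4% over the genome.

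Overlapping IKAROS peaks of the 4 libraries were merged into sites, 160 near the 10 genes, of which 110 were found in both WT libraries. Of these, 42 (38.2%) were without a DKO peak, beside 41.8% of the 7730 such sites of the genome, and 68 were retained in at least 1 DKO library. No site near the genes was found in both DKO libraries and neither WT library. Irf8 lost 0 of 8 sites, Ikzf3 1 of 7, Bach2 3 of 15 and Irf4 2 of 7. Spib lost 6 of 14, Ets1 11 of 26, Pax5 6 of 12 and Ebf1 9 of 16. Ikzf1 lost 2 of 3 and Pou2f2 2 of 2. Lost sites had a median WT fold enrichment, the ratio of the pileup at the summit to its local background, of 5.51, and retained sites of 8.78, beside 5.97 and 11.1 over the genome. With equal numbers of top peaks, 7 of 52 sites (13.5%) were lost, beside 11.5% over the genome.

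At the IKAROS sites found in all 4 libraries, fold enrichment was lower in DKO almost throughout. Of 48 such sites near the genes, 45 had a lower mean log2 value in DKO, 36 were called lower and 0 higher in limma, beside 79.8% of 3549 sites called lower over the genome. The median DKO value was 0.575 of WT near the genes and 0.532 over all sites. After each library was centred on its own median, 2 of the 48 were called lower and 6 higher, with a median log2 difference of 0.11, beside 13.8% of all 3549 sites called in either direction.

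For each gene the IKAROS site with the highest WT -log10 q is given as an example. Choosing on the WT value favours a lower DKO value, so these folds are no estimate of the typical difference. An intergenic site upstream of Ebf1 (chr11:44388671-44389415, 42018 bp from the Ebf1 start) had a fold enrichment of 29.0 and 21.8 in WT and 6.08 and 6.64 in DKO, 25.3% of WT (adjusted p = 0.000249, limma). The Pax5 promoter (chr4:44723193-44725546) had 19.8 and 24.3 in WT and 10.4 and 9.15 in DKO (adjusted p = 0.000733, limma). An intergenic site beyond the 3' end of Ikzf3 (chr11:98319223-98322014), for which Grb7 is the nearest start, had 29.2 and 32.4 in WT and 11.5 and 10.5 in DKO (adjusted p = 0.000259, limma). In each of these the DKO values were well below both WT values.

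An intronic site of Irf4 (chr13:30852152-30854150) had 13.1 and 14.3 in WT and 4.41 and 3.93 in DKO, 30.4% of WT (adjusted p = 0.000249, limma). The Bach2 promoter (chr4:32325827-32327665) kept more, with 29.9 and 34.4 in WT and 20.8 and 19.0 in DKO (adjusted p = 0.00782, limma). An intergenic site upstream of Ets1 (chr9:32420722-32422366) had 17.9 and 18.9 in WT and 13.9 and 13.1 in DKO, 73.4% of WT (adjusted p = 0.0461, limma). The difference between Irf4 and Ets1 was not itself tested.

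The site upstream of Irf8 (chr8:123249416-123250176, in an intron of the annotated gene Gm20388) had a fold enrichment of 10.5 and 12.5 in WT and 5.63 and 6.90 in DKO. The strongest site in the Spib window, at the promoter of 2310044H10Rik (chr7:51751567-51751808), had 13.6 and 21.8 in WT and 8.60 and 11.8 in DKO. The Ikzf1 promoter (chr11:11589972-11591836) had 8.31 and 6.69 in WT and 6.13 and 6.14 in DKO, the only Ikzf1 site found in all 4 libraries, and was not called (adjusted p = 0.202, limma). Pou2f2 had no site in all 4 libraries, and its strongest, in an intron (chr7:25914398-25915198), had 6.02 and 6.39 in WT and no DKO peak.

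**Figure D3:**
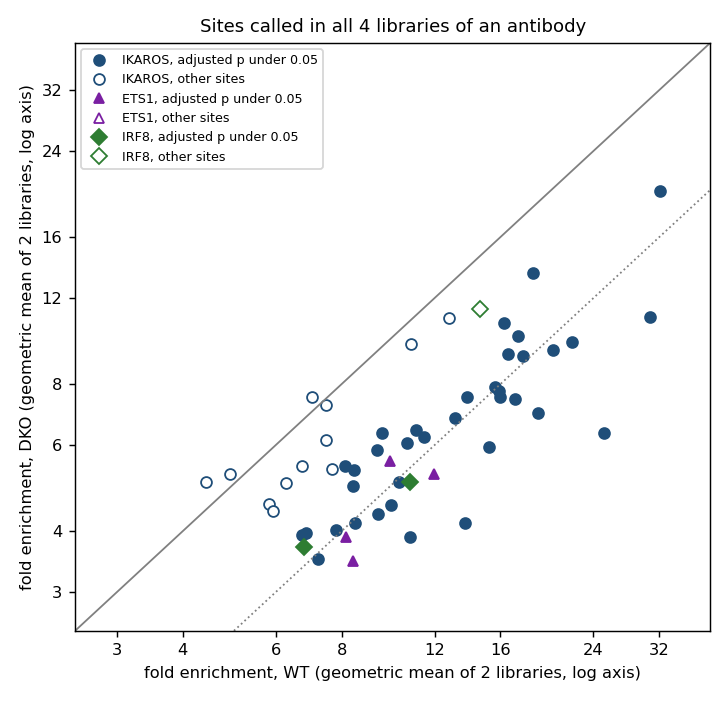
Fold enrichment in WT (x axis) and DKO (y axis) at the sites near the 10 genes found in all 4 libraries of IKAROS, ETS1 or IRF8, each the geometric mean of 2 libraries on log axes. Filled symbols have an adjusted p under 0.05 (limma), the solid line marks equal values and the dotted line DKO at 50% of WT. Of the 48 IKAROS sites, 45 lie below the solid line.

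ETS1, which binds GGAA cores, had peaks near all 10 genes in both WT libraries, and in both DKO libraries near 4 of them. Of all 22367 protein-coding genes, 5736 had ETS1 peaks in both WT libraries and 1812 in both DKO libraries. The 10 genes together had 33 ETS1 peaks in either WT list, against 8 and 6 in DKO, 21.2% of WT, beside 25.5% over all ETS1 peaks. Both WT libraries had more than both DKO libraries near 9 of the 10 genes, beside 48.8% of the 8423 genes with any ETS1 peak. The 10 genes had a median of 3.75 WT peaks, and the shares were not compared at like peak numbers. With 1098 top peaks per library the means were 8 in WT and 6.50 in DKO, 81.2% of WT.

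Ebf1 had 4 and 7 ETS1 peaks in WT and 1 in each DKO library. Bach2 had 6 and 3 in WT and 2 and 1 in DKO, and Irf8 had 4 and 5 in WT and 2 and 1 in DKO. Pax5 had 4 and 5 against 0 and 1, and Ikzf3 had 5 and 4 against 1 and 0. Near these 5 genes the WT and DKO libraries did not overlap.

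Spib had 3 ETS1 peaks in both WT lists and 1 and 0 in DKO. Ikzf1, with 3 and 2 in WT, and Ets1 and Pou2f2, with 1 in each WT library, had 0 in both DKO libraries. Irf4 was the exception, with 2 in each WT library and 1 and 2 in DKO.

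Of the 10 genes, 5 had enough ETS1 peaks for limma, and 0 were called at an adjusted p of 0.05, beside 34.9% of 724 genes called fewer. Their log2 changes were -1.95 for Ebf1 (adjusted p = 0.0512, limma), -1.36 for Irf8 (0.0941), -2.52 for Pax5 and for Ikzf3 (0.106 each) and -1.30 for Bach2 (0.147). Before adjustment, Ebf1 and Irf8 had p values of 0.018 and 0.047 in limma. With 1 spread common to all genes all 5 were called, beside 463 of the 724 genes. With every gene that had a peak in any library tested, 3 of the 10 were called fewer, beside 31.4% of 8423 genes called in either direction. These were Ikzf1 (adjusted p = 0.0136, limma) and Ets1 and Pou2f2, whose pairs were tied at 1 and 0 peaks. Irf8 was also called with -log10 q of at least 4 (adjusted p = 0.0110, limma) and with fold enrichment of at least 4 (0.0106), and Ebf1 at 10 kb (0.0256) and at 100 kb (0.0357). In these 4 settings 34.2%, 37.6%, 37.4% and 37.0% of all genes tested were called. Ebf1 was called without either WT replicate, where its DKO pair was tied, and Ikzf3 without DKO replicate 1 (adjusted p = 0.0463, limma).

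Of 25 ETS1 sites near the genes found in both WT libraries, 15 (60.0%) had no DKO peak, the same as the 60.0% of 3293 sites over the genome. With equal numbers of top peaks, 1 of 5 was lost (20%), beside 19.5% over the genome. There were 4 ETS1 sites were in all 4 libraries, near Ebf1, Irf4, Bach2 and Irf8. All 4 were called lower in DKO, beside 49.7% of 743 sites, and 0 after centring each library on its median. At the Irf4 intronic site (chr13:30853140-30853605) ETS1 fold enrichment was 12.8 and 11.1 in WT and 4.34 and 6.33 in DKO, in the interval where IKAROS had also fallen.

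IRF8, PAX5 and OCT2 had few peaks near the genes. IRF8 had 7 and 6 in WT and 3 and 4 in DKO, 53.8% of WT beside 37.3% over all IRF8 peaks, and 117% with 284 top peaks per library. Both WT libraries exceeded both DKO libraries near 2 of the 6 genes with any IRF8 peak, beside 34.2% of 1943 such genes. These were Ebf1 and Spib, each with 1 peak in WT and 0 in DKO. Pax5 and Pou2f2 had 1 IRF8 peak in every library, Ets1 had 1 in each WT library and 0 and 1 in DKO, and Bach2 had 2 and 1 in WT and 1 in each DKO library. Of the 6 IRF8 sites found in both WT libraries 2 were lost (33.3%), beside 48.6% of 675, and 0 of 2 with equal numbers of top peaks, beside 13.3%.

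IRF8 fold enrichment could be tested at 3 sites. In the Pou2f2 intron (chr7:25914595-25914856) it was 9.84 and 11.8 in WT and 5.26 and 4.83 in DKO (adjusted p = 0.0036, limma). In the Bach2 intron (chr4:32445682-32445874) it was 8.11 and 5.67 against 4.48 and 3.08 (adjusted p = 0.0238, limma). In the Pax5 intron (chr4:44683919-44684210) it was 15.4 and 13.9 against 14.1 and 9.25, overlapping between genotypes and not called (adjusted p = 0.276, limma). The 2 calls compare with 36.3% of 215 IRF8 sites called lower, and 0 of the 3 were called after centring. Without WT replicate 1, DKO replicate 1 or DKO replicate 2, 1 IRF8 site was called.

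PAX5 had 3 and 2 peaks near the genes in WT and 0 in DKO. Irf8 and Spib each had 1 PAX5 peak in both WT libraries, and Ikzf3 had 1 in WT replicate 1 only (-log10 q 6.25). WT thus exceeded DKO for 2 of these 3 genes, beside 36.1% of the 714 genes with any PAX5 peak. OCT2 had 1 peak in each WT library, in the Spib window, and 0 in DKO. WT thus exceeded DKO for the only gene here with an OCT2 peak, beside 48.4% of the 184 genes with any. The whole DKO lists held only 28 and 34 PAX5 peaks and 10 and 18 OCT2 peaks, so a loss near these genes cannot be told apart from the shortness of the lists.

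Peaks of a factor near its own gene were seen for IKAROS and ETS1. IKAROS had 7 and 6 peaks near Ikzf1 in WT and 3 and 2 in DKO, and ETS1 had 1 near Ets1 in each WT library and 0 in DKO. IRF8 near Irf8, PAX5 near Pax5 and OCT2 near Pou2f2 had 0 peaks in every library.

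The peaks of the 20 rB lists merged into 168 regions near the 10 genes, and 112 had at least 1 antibody in both WT libraries. Of the 112, 25 lay at a promoter (within 1000 bp of a protein-coding start), 7 in an exon, 58 in an intron and 22 between genes, and for 90 the nearest start was that of the gene itself. IKAROS was present in 107. It was found in 20 of the 25 regions with ETS1, in 6 of 6 with IRF8, in 2 of 2 with PAX5 and in the 1 with OCT2. Over the genome, 1704 IKAROS regions held ETS1, and ETS1 had 3293 sites in both WT libraries. The genome share was not counted for the other antibodies. Of the 20 IKAROS regions that also held ETS1, 2 had no IKAROS peak in DKO, against 38 of the 87 without ETS1. Over the genome, 29.6% of the 1704 IKAROS regions with ETS1 and 45.4% of the 5690 without it were lost, in the same order. At promoters 5 of 25 IKAROS regions were lost, beside 34.9% of 3466 over the genome, and elsewhere 35 of 82, beside 47.9% of 3928. Regions of a gene share their libraries, so these shares are descriptions.

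In all, 6 regions held 3 antibodies in both WT libraries, and 0 held 3 in both DKO libraries, where 5 held 2. The same count was not made over the genome or with equal numbers of top peaks. The DKO lists were shorter for each antibody, and this fall cannot be told apart from their shortness. IKAROS, ETS1 and IRF8 met in an Ebf1 intron (chr11:44577449-44579417), an Ets1 intron (chr9:32459826-32460470), the Pou2f2 intron (chr7:25914398-25915198) and the Napsa promoter in the Spib window (chr7:51826570-51827786). IKAROS, ETS1 and PAX5 met upstream of Irf8 (chr8:123249244-123250176) and at the Nr1h2 promoter in the Spib window (chr7:51809337-51809961). These regions hold 6 of the 9 sequences printed above.

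In DKO the 6 regions kept different antibodies. The Ebf1 intron kept IKAROS, with fold enrichment of 14.8 and 23.9 in WT and 6.53 and 7.44 in DKO, but neither ETS1 (8.21 and 8.09 in WT) nor IRF8 (5.55 and 5.92). The Ets1 intron kept IKAROS in both DKO libraries, IRF8 in DKO replicate 2 only and ETS1 in neither. The Pou2f2 intron had IRF8 in both DKO libraries, and IKAROS and ETS1 in neither.

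The region upstream of Irf8 kept IKAROS in both DKO libraries and lost PAX5 (7.05 and 9.25 in WT) and ETS1 (4.41 and 6.90). The Nr1h2 promoter kept IKAROS in DKO replicate 1 only and lost PAX5 (7.07 and 7.71 in WT) and ETS1 (8.29 and 8.12). The Napsa promoter kept IKAROS in both DKO libraries and ETS1 in DKO replicate 1, and lost IRF8 (8.31 and 4.78 in WT). The OCT2 region at the 2310044H10Rik promoter had OCT2 fold enrichment of 5.90 and 5.23 in WT, no OCT2 peak in DKO, and IKAROS in all 4 libraries.

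Within 1000 bp of a start of the gene itself, IKAROS was found in both WT libraries at 9 of the 10 genes, all but Pou2f2, and in both DKO libraries at 8. The other 4 antibodies were found there in both WT libraries at 0 of the 10. The same shares over all genes were not counted, and the 10 genes had from 1 to 8 annotated starts each. The letters TGGGAA, the IKAROS motif, were present in the windows around the summits of 26 of the 110 IKAROS sites near the genes (23.6%) and of 18.2% of all 7730. The ETS motif GGAAGT was present at 9 of the 25 ETS1 sites (36.0%) and at 54.0% of all 3293, and the ETS-IRF motif at 7 of 25 (28.0%) and 17.1%.

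Of 24 further genes of B cell transcription factors, 20 had an IKAROS peak within 50 kb in both WT libraries, and together they had 158 and 178 peaks in WT and 93 and 90 in DKO, 54.5% of WT. Foxp1 had the most, 31 and 36 in WT and 19 and 18 in DKO, and Myb, Lef1 and Prdm1, the gene of a plasma cell regulator, had 0. Of 17 tested, 5 were called fewer in limma (Mef2c, Nfkb1, Id3, Klf2 and Foxp1) and 0 more, beside 28.6% of all genes, with a median of -0.79. Nfkb1 had 4 peaks in both WT lists and 3 in both DKO lists, so its call rests on a change of 1 peak between tied pairs. Mef2c was tied too, at 14 peaks in WT and 5 in DKO. For ETS1, 9 were tested and 5 called fewer (Runx3, Mef2c, Relb, Nfatc1 and Fli1), beside 34.9% of all genes, with a median of -1.58. Runx3 (3 in WT, 1 in DKO) and Nfatc1 (4 and 1) were tied in both genotypes. Mef2c and Relb had 0 in both DKO libraries. Of 10 pluripotency genes 1 had an IKAROS peak in both WT libraries, of 10 mesenchymal genes 0, and of all protein-coding genes 36.3%.

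In MEFs, H3K27ac, a mark of active regulatory DNA, had 115 and 110 peaks near the genes in WT and 114 and 112 in DKO, 100% of WT beside 91.1% over all its peaks. Most lay near Ets1 (34 and 28 in WT, 32 and 29 in DKO), Ebf1 (25 and 28, 29 and 25) and Bach2 (25 and 26, 25 and 30), and Irf8 had 0 in each library. Brd3, a reader of acetylated chromatin, had 48 and 57 in WT and 6 and 19 in DKO, 23.8% of WT beside 31.8% over all its peaks. WT exceeded DKO near 5 of the 8 genes with any Brd3 peak, beside 71.6% of 16526 such genes. Ets1 alone had 17 and 19 of the WT Brd3 peaks, against 0 and 2 of those in DKO. CEBPB had 15 in both WT lists and 6 in both DKO lists. WT exceeded DKO near 4 of the 6 genes with a CEBPB peak in both WT lists. The share was 60.4% of the 11566 genes with a peak in any list.

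In ESCs, Nanog, Sox2 and Oct4 had more peaks near the genes in DKO, and Klf4 did not, with 9 and 4 in WT and 6 in both DKO lists. Nanog had 63 and 65 in WT and 88 and 80 in DKO. DKO exceeded WT near 8 of the 10 genes, beside 41.2% of the 20098 genes with any Nanog peak. Pax5 had 8 Nanog peaks in both WT lists and 14 in both DKO lists. Sox2 had 10 and 12 against 20 and 19. DKO exceeded WT near 4 of the 7 genes with any Sox2 peak, beside 32.7% of 14079 such genes. Oct4 had 14 and 20 against 39 and 43. DKO exceeded WT near 4 of the 8 genes with an Oct4 peak in both DKO lists. The share was 62.6% of the 17669 genes with a peak in any list. CTCF, an insulator protein, had 82 and 86 in WT and 84 and 85 in DKO. Of the 112 rB regions, 23 overlapped an H3K27ac peak of WT MEFs and 26 one of DKO MEFs. For Brd3 in MEFs the numbers were 15 and 8. In ESCs they were 7 in either genotype for CTCF, 4 in WT and 8 in DKO for Nanog, and 3 and 6 for Oct4.

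**Figure D4:**
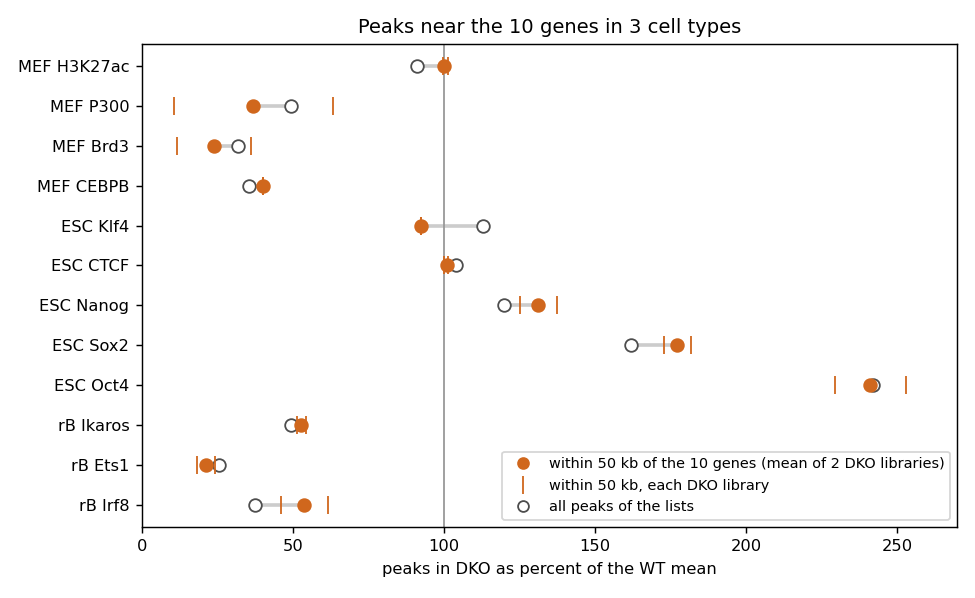
Peaks in DKO as a percentage of the WT mean for 12 antibodies with at least 5 WT peaks near the 10 genes. Filled circles are peaks within 50 kb of the genes (ticks, each DKO library) and open circles all peaks of the lists. The rB values of IKAROS, ETS1 and IRF8 are 52.8%, 21.2% and 53.8%, and Nanog, Sox2 and Oct4 lie above 100%.

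**Figure D5:**
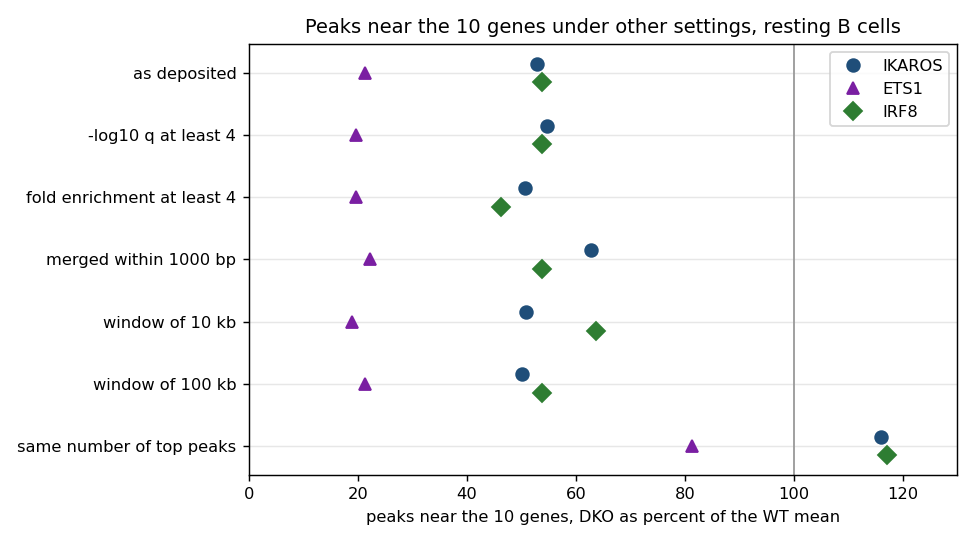
Peaks near the 10 genes in DKO rB as a percentage of the WT mean for IKAROS (circles), ETS1 (triangles) and IRF8 (diamonds) under 7 settings. The values range from 18.8% to 63.6% except with the same number of top peaks in each library, where they are 116%, 81.2% and 117%.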

How the data were processed

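ChIP-seq peak lists of 64 libraries were used, 20 of them from rB. The authors trimmed reads with cutadapt 1.16, mapped them to mm9 with BWA, marked duplicates, left out blacklisted reads and used MACS2 2.1.1.20160309 to call narrow peaks per library. The deposited fold enrichment is the authors' ratio of summit pileup to local background. The deposited score is 10 times -log10 q, cut to a whole number, and the deposited -log10 p and q value (as -log10 q) are the caller's. The lowest -log10 q was 2.00.

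The genes, lists and named sites were chosen with earlier results of these data known. Named sites were, per gene, the IKAROS site with the highest WT -log10 q, sites of at least 3 antibodies, and all PAX5 and OCT2 sites. Sequences were to be printed for the site of each gene with the most antibodies. The selection printed and the centring on the summit of the antibody with the fewest peaks were chosen after the values were seen, as were the genes named with values among the other B cell factors and in MEFs and ESCs. The rule also named sites of both DKO and no WT library, of which there were 0.

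Numbers of peaks (with a pseudocount of 0.5 and a mean of at least 2 peaks) and log2 fold enrichment were compared across all genes or sites in limma 3.58.1 (moderated test, R 4.3.3), without a replicate block, with Benjamini-Hochberg adjustment and a threshold of 0.05. Peak numbers per list were compared over 16 antibodies. Peaks of an antibody overlapping by 1 bp formed a site. Counting used Python 3.11.15 and pandas 2.3.3, sequences pysam 0.24.0, and plots matplotlib 3.10.9. A list counted as solved for depth when at least 85% of its summits gave whole numbers of reads, within 0.0005 in -log10 p. The fits were tested on simulated data, where the moderated test of IKAROS peak numbers missed most changes and 1 common spread found more of them at the cost of wrong calls. Alternatives were stricter q and fold enrichment, merging, equal numbers of top peaks, windows of 10 and 100 kb, other filters and pseudocounts, a replicate block, centring and each library left out. Input libraries were not used.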

Additional observations from a re-analysis of the deposited data

How the results depend on the processing

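Of the summary values, 141 stayed the same under the alternatives, 30 moved, 5 lost the call and 2 reversed. Peak numbers per list were judged by direction and threshold. Counts of genes or sites stayed the same within a fixed ratio, and percentages of peaks near the genes within their SD. Shares of lost sites stayed the same within the 95% interval of the reported share. Of the log2 changes of single genes, 154 kept their direction and side of the threshold. Of the others, 20 lost the call, 30 gained one and 4 reversed. With the same number of top peaks in each library, DKO peaks near the 10 genes were 116% of WT for IKAROS and 117% for IRF8, both reversed, and 81.2% for ETS1. The log2 change in IKAROS peaks was then 0.12 near Pax5, 0.67 near Irf8, 0.59 near Irf4 and 0.27 near Bach2, and 0.93 near Ikzf3 (0 as reported), none of them called. Lost sites were 13.5% for IKAROS, 20% for ETS1 and 0% for IRF8, and 275 genes were called for IKAROS (1043 as reported) and 14 for ETS1 (253). This setting gives each list the same length, so it removes any difference in the number of peaks.

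Merging peaks within 1000 bp gave 62.8% for IKAROS and 695 genes, and a window of 100 kb gave 50.1%. Calling a site lost when at most 1 DKO library held it gave 56.4% for IKAROS and 84.0% for ETS1. Genes called for IKAROS and ETS1 numbered 2697 and 2642 with any peak, 641 and 48 with a mean of at least 4 peaks, 386 and 83 at 10 kb and 1955 and 587 at 100 kb, where different numbers of genes are tested. With 1 spread common to all genes, a setting chosen after seeing the data, they numbered 1748 and 463. Centring fold enrichment on the library median gave 488 sites for IKAROS, 140 for ETS1 and 52 for IRF8, where 2843, 382 and 82 were reported.

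The labels give the libraries replicate numbers and nothing else that would pair them. The deviations of WT and DKO replicate 1 had a correlation of 0.0136 over IKAROS genes and 0.0716 over ETS1 genes. Over the peak numbers of the 16 antibodies it was 0.234. With a replicate block 502 genes were called for IKAROS and 166 for ETS1. Among the 10 genes Ebf1 kept its IKAROS call (adjusted p = 0.0427, limma) and Pax5 (0.0564), Ets1 (0.132) and Spib (0.125) did not, while Bach2 was called for ETS1 (0.0454).

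With each replicate left out, the log2 change in peak number ranged from -1.15 to -0.883 for IKAROS, -2.05 to -1.90 for ETS1, -1.63 to -1.24 for IRF8, -3.18 to -2.90 for PAX5 and -2.77 to -1.93 for OCT2. Peaks near the genes ranged from 51.4% to 54.2%, 18.2% to 24.2% and 46.2% to 61.5% of WT for IKAROS, ETS1 and IRF8 and stayed at 0% for PAX5 and OCT2. Lost sites ranged from 47.3% to 53.1%, 68.0% to 76.0% and 33.3% to 50%. Without a WT library a site needs a peak in only 1 WT library, and without a DKO library only 1 can hold it. Genes called ranged from 873 to 1631 and 233 to 327. Genes tied in the remaining pair then have almost no spread, so these counts do not measure stability. Sites called ranged from 2710 to 2927, 296 to 429 and 50 to 74.

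The unknown depth of 7 DKO lists of rB limits the comparisons of peak numbers in rB. The depth of the MEF and ESC lists was not examined.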
